A study of Mus musculus with 6 samples.

Results

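Transcripts that blood can carry into a tissue sample, from 7 genes, were followed in cerebellum libraries from WT and KIKO mice. These were the adult globin genes *Hbb-bs*, *Hbb-bt*, *Hba-a1* and *Hba-a2*, the red cell heme synthesis gene *Alas2*, and the neutrophil genes *S100a8* and *S100a9*. They were chosen by name, as 7 of the 31053 genes in the count table, and all 7 had enough counts to be among the 10889 genes tested. KIKO (knock-in knock-out) mice are a model of Friedreich ataxia, and WT mice are their controls. The comparison held 2 WT and 3 KIKO libraries of bulk RNA sequencing. A WT sample numbered 3 is labelled but has no column in the count table, so it was not analysed here. The labels give the cerebellum as tissue and the genotype, without age, sex or sorting. In contrast, the methods of the study describe CD45+/CD11b+ cells isolated from the cerebellum, and a figure legend gives 6-mo-old mice for their sequencing. The study also describes cultured microglia and older mice fed butyrate, so the age of the mice behind these libraries is not certain. The study describes several mice per genotype, in a number that differs from that of the libraries here, and the labels do not say that each library came from its own mouse, so p-values measure only the spread between these libraries, which may be technical.

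Hemoglobin, the oxygen carrier of red cells, is built from alpha and beta chains that each hold a heme group. *Alas2* encodes the erythroid enzyme for the first step of heme synthesis. Mature red cells have no nucleus, and young red cells (reticulocytes) still carry globin RNA, so a tissue that was not cleared of blood gives globin reads. *S100a8* and *S100a9* encode calprotectin, a calcium-binding protein pair that fills the cytosol of neutrophils and is also made by activated monocytes and macrophages.

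WT replicates 1 and 2 held 1044760 and 1351339 counts, and KIKO replicates 1, 2 and 3 held 1281661, 1241997 and 1013107. Levels below are normalized CPM (counts scaled to a common library size), with edgeR's TMM factor applied. On this scale 3 counts, taken as the smallest signal, equalled 2.95 and 2.25 in the WT libraries and 2.34, 2.29 and 3.01 in the KIKO libraries, a floor that covers counting error only. KIKO replicate 2 stood apart from the rest. It had counts for 12724 genes, against 13729 to 14737 in the other libraries. Across the genes tested, its log2 CPM gave r from 0.656 to 0.732 against the remaining libraries, while the highest r among all pairs was 0.926. The genes are not independent replicates, and this is a description only. Replicates had a common biological coefficient of variation of 0.468, or of 0.238 without KIKO replicate 2.

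The globin genes lie in 2 tandem pairs. In GRCm38, *Hbb-bs* (ENSMUSG00000052305) occupies chr7:103826534-103828096 and *Hbb-bt* (ENSMUSG00000073940) chr7:103812524-103813996, both on the minus strand. *Hba-a1* (ENSMUSG00000069919) occupies chr11:32283511-32284465 and *Hba-a2* (ENSMUSG00000069917) chr11:32296489-32297298, both on the plus strand. The coding sequences of the alpha pair are 426 bases long and differ at 1 base, C381T, counted from 1 at the first coding base with the base of *Hba-a1* first and that of *Hba-a2* last. Those of the beta pair are 441 bases long and also differ at 1 base, C417T, with *Hbb-bs* first and *Hbb-bt* last. Both pairs are 99.77% identical in coding sequence, and each pair encodes 1 protein. The 49 bases around each difference lie in exon 3 of 3 and are shown because they hold all that separates the coding sequences of each pair, with the differing base in capitals.
Hba-a1, chr11:32284319-32284367: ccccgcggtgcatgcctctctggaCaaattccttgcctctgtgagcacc
Hba-a2, chr11:32297136-32297184: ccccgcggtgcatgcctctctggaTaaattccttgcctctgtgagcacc
Hbb-bs, chr7:103826668-103826716: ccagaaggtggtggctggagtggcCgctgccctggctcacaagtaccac
Hbb-bt, chr7:103812659-103812707: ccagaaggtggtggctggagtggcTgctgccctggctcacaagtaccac

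This likeness limits what a count per gene can say. Windows of 75 bases, the read length given in the methods, were compared between transcripts. Of the windows of *Hbb-bs*, 64.3% also occurred in *Hbb-bt*, and 56.6% of the windows of *Hbb-bt* occurred in *Hbb-bs*. In the alpha pair, 62.2% of the windows of *Hba-a1* and 81.0% of those of *Hba-a2* were shared. Among the last 150 windows at the 3′ end, 0 were shared within the beta pair, while 75 of *Hba-a1* and 59 of *Hba-a2* were shared. How reads that map to both copies were counted is not given in the sources used here, so the split within a pair is uncertain, and the pair sums are given beside it. *Alas2*, *S100a8* and *S100a9* shared 0 windows with another gene. The exons of *Alas2* (ENSMUSG00000025270, chrX:150547375-150570638, plus strand) overlap those of *Apex2* on the opposite strand and of *Mir3620*, and the strand setting of the counting is not given in the sources used here either. *S100a8* (ENSMUSG00000056054, chr3:90668978-90670035, plus strand) and *S100a9* (ENSMUSG00000056071, chr3:90692632-90695721, minus strand) are neighbours that point in opposite directions.

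The core promoters of all 7 genes were read from RefSeq (GRCm38.p6) and are shown from 40 to 11 bases before the start of transcription. The stretches of *Hba-a1* and *Hba-a2* are the same sequence shifted by 3 bases, and those of the other members differ from it and from each other. Capitals mark the TATAA motif of core promoters, the CACCC motif that Krüppel-like factors bind, the GATA-type motif AGATAA, the ETS-type motif GAGGAA and the CCAAT box, searched on both strands. On the opposite strand the CACCC motif reads GGGTG, the ETS-type motif reads TTCCTC and the CCAAT box reads ATTGG. In *S100a8* the ETS-type motif is followed directly by TATAA.
Hbb-bs, chr7:103827939-103827968, minus strand: agggcagagcaTATAAggtgaggtaggatc
Hbb-bt, chr7:103813934-103813963, minus strand: cagcATTGGgtaTATAAagctgagcagggt
Hba-a1, chr11:32283632-32283661, plus strand: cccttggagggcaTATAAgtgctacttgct
Hba-a2, chr11:32296452-32296481, plus strand: ttggagggcaTATAAgtgctacttgctgca
Alas2, chrX:150547377-150547406, plus strand: GGGTGGGGTGGGGTGggcggggctgagcag
S100a8, chr3:90669031-90669060, plus strand: agctTTCCTCTATAAaagcagctgacactt
S100a9, chr3:90695732-90695761, minus strand: atcttccccgAGATAAccatgtatctaaca

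Both beta genes, both alpha genes and *S100a8* held TATAA in this stretch. *Alas2* held 3 copies of the opposite-strand form of CACCC there, and *S100a9* held AGATAA. In the full window of 300 bases around the start, both strands searched, CCAAT was found in the 4 globin genes and in no other member, and 37.4% of 32817 RefSeq windows held it. CACCC was found in 6 of the 7 members, all but *S100a8*, and in 57.5% of all windows. The GATA-type motifs were found as AGATAA in *Hbb-bs*, *Alas2* and *S100a9* (11.2% of all windows) and as TGATAA in *Hba-a1* and *Hba-a2* (9.06% of all windows). TTGCNNAA, a C/EBP-type motif, was found in *Hbb-bs* and *S100a9* and in 10.8% of all windows, and GAGGAA in *Alas2* and *S100a8* and in 28.3% of them. TATAA occurred somewhere in all 7 windows and in 24.9% of all windows. The windows of *Hba-a1* and *Hba-a2* shared an identical run of 297 bases, so their motifs are not separate cases. A match of letters is a description of the sequence and not a binding site.

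*Hbb-bs*, the gene of the adult beta s chain, had 533 counts in WT replicate 1 and 1909 in WT replicate 2. It had 1341, 2843 and 857 counts in KIKO replicates 1, 2 and 3. In normalized CPM these were 524 and 1430 in WT, and 1045, 2170 and 859 in KIKO mice. WT replicate 1 was the lowest and KIKO replicate 2 the highest, and the groups overlapped. The mean was 977 ± 640 (SD, n = 2) for WT and 1358 ± 709 (SD, n = 3) for KIKO, a log2 fold change of 0.47 (standard error 0.60, 95% interval −0.89 to 1.84) with an adjusted p of 0.9999 in edgeR's quasi-likelihood test.

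*Hbb-bt*, the gene of the adult beta t chain, had 127 and 204 normalized CPM in the WT libraries and 161, 229 and 170 in the KIKO libraries. The lowest value was again that of WT replicate 1 and the highest that of KIKO replicate 2, but the range was narrower, 1.80-fold from lowest to highest against 4.14-fold for *Hbb-bs*. The mean was 165 ± 54.3 (SD, n = 2) for WT and 187 ± 37.0 (SD, n = 3) for KIKO. The log2 fold change was 0.17 (standard error 0.39, 95% interval −0.71 to 1.06), with an adjusted p of 0.9999 in edgeR's test.

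The alpha chain genes did not rise with *Hbb-bs* in KIKO replicate 2. *Hba-a1* had 219 and 623 normalized CPM in the WT libraries and 347, 326 and 343 in the KIKO libraries. All 3 KIKO values lay between the 2 WT values, and the KIKO libraries were within 1.06-fold of each other. The mean was 421 ± 286 (SD, n = 2) for WT and 338 ± 11.02 (SD, n = 3) for KIKO, and the log2 fold change was −0.32 (standard error 0.47, 95% interval −1.40 to 0.76). *Hba-a2* had 142 and 447 normalized CPM in the WT libraries and 310.0, 154 and 262 in the KIKO libraries. Again all KIKO values lay between the WT values, with KIKO replicate 2 close to the low WT library. The mean was 294 ± 216 (SD, n = 2) for WT and 242 ± 79.8 (SD, n = 3) for KIKO, and the log2 fold change was −0.28 (standard error 0.54, 95% interval −1.52 to 0.95). Both alpha genes had an adjusted p of 0.9999 in edgeR's test.

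*Alas2* was near the floor. It had 6 and 16 counts in the WT libraries and 14, 7 and 19 counts in the KIKO libraries, that is 5.90 and 11.99 normalized CPM in WT and 10.9, 5.34 and 19.0 in KIKO mice. The exact Poisson 95% interval of the lowest count, 6, ran from 2.20 to 13.1 counts. KIKO replicate 2 and WT replicate 1 had the lowest *Alas2* levels, which differed by less than counting error. The groups overlapped, with means of 8.95 ± 4.30 (SD, n = 2) for WT and 11.8 ± 6.89 (SD, n = 3) for KIKO and a log2 fold change of 0.36 (standard error 0.83, 95% interval −1.54 to 2.26). In edgeR's test its adjusted p was 0.9999.

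*S100a8* had 6 and 21 counts in the WT libraries and 43, 30 and 13 counts in the KIKO libraries. In normalized CPM these were 5.90 and 15.7 in WT, and 33.5, 22.9 and 13.03 in KIKO mice, against a floor of 2.25 to 3.01. KIKO replicate 3 lay below WT replicate 2, so the groups overlapped. The mean was 10.8 ± 6.95 (SD, n = 2) for WT and 23.1 ± 10.2 (SD, n = 3) for KIKO, and the log2 fold change was 1.08 (standard error 0.70, 95% interval −0.53 to 2.68), with an unadjusted p of 0.161 and an adjusted p of 0.9999 in edgeR's test.

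*S100a9*, the partner chain of calprotectin, had 11 and 8 counts in the WT libraries and 72, 12 and 22 counts in the KIKO libraries. In normalized CPM these were 10.8 and 5.99 in WT, and 56.1, 9.16 and 22.1 in KIKO mice. KIKO replicate 1 was far above the other libraries, and KIKO replicate 2 lay between the WT libraries, so the groups overlapped. The exact Poisson 95% intervals ran from 56.3 to 90.7 counts for KIKO replicate 1 and from 6.20 to 21.0 counts for KIKO replicate 2. The mean was 8.41 ± 3.42 (SD, n = 2) for WT and 29.1 ± 24.2 (SD, n = 3) for KIKO. The log2 fold change was 1.80 (standard error 0.85, 95% interval −0.15 to 3.74), the largest of the 7, with an unadjusted p of 0.0658 and an adjusted p of 0.9999 in edgeR's test.

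**Figure D1:**
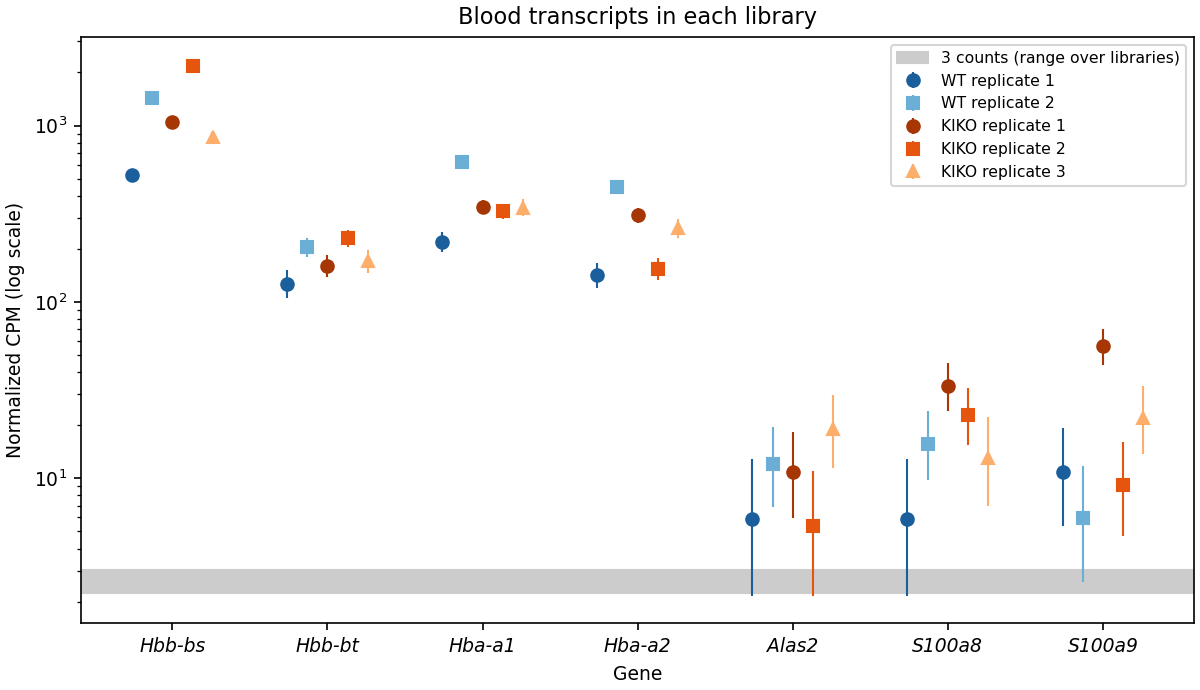
Level of each blood transcript in each library, as normalized CPM on a log axis, for 2 WT and 3 KIKO libraries; bars are exact Poisson 95% intervals of the count and the grey band is the level of 3 counts (2.25 to 3.01). The globin genes lie far above the band, *Alas2*, *S100a8* and *S100a9* lie nearer to it (up to 56.1 for *S100a9* in KIKO replicate 1), and WT and KIKO libraries overlap for every gene.

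In edgeR's quasi-likelihood test, 0 of the 7 genes passed the thresholds of the study (a log2 fold change beyond 0.75 either way, unadjusted p below 0.05), as did 131 of the 10889 genes tested, or 1.2%. Genes higher in KIKO mice were 78 of these, or 0.716% of the genes tested, and 53 genes, or 0.487%, were lower. At an adjusted p under 0.05 (Benjamini-Hochberg), 0 of 10889 genes passed in edgeR and 0 in DESeq2. The median log2 fold change of the 7 genes was 0.36, beside 0.02 over all genes tested, and 5 of the 7 were above 0. With 2 against 3 libraries, the smallest p of a two-sided exact permutation test, with the smaller tail doubled, would be 0.2, so no such test was run.

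Single libraries decided the direction of the red cell genes. Without KIKO replicate 2, the log2 fold change of *Hbb-bs* was −0.047 and that of *Hbb-bt* −0.012, and without WT replicate 1 they were −0.091 and −0.14. Without WT replicate 2, *Hba-a1* was at 0.61 and *Hba-a2* at 0.76. *Alas2* was at −0.041 without WT replicate 1 and at −0.15 without KIKO replicate 3. None of these values passed the thresholds. *S100a8* stayed above 0 under each of the 12 alternatives that gave it a value, from 0.55 without WT replicate 1 to 1.94 without WT replicate 2.

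*S100a9* also stayed above 0 under each of its 12 alternatives, from 0.89 without KIKO replicate 1 to 2.26 without WT replicate 1, and it passed the thresholds under 3 of them. With DESeq2's Wald test its log2 fold change was 1.80 with an unadjusted p of 0.0458, where 1.25% of genes tested passed and 0.882% were higher in KIKO mice. With all genes of at least 1 count in the edgeR test it was 1.80 with an unadjusted p of 0.0162, where 2.28% passed and 1.52% were higher. Without KIKO replicate 2 it was 2.25 with an unadjusted p of 0.000373 and an adjusted p of 0.208 in edgeR's test, where 6.45% of 10373 genes passed and 2.94% were higher. *S100a9* did not reach an adjusted p under 0.05 in these 3 fits.

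**Figure D2:**
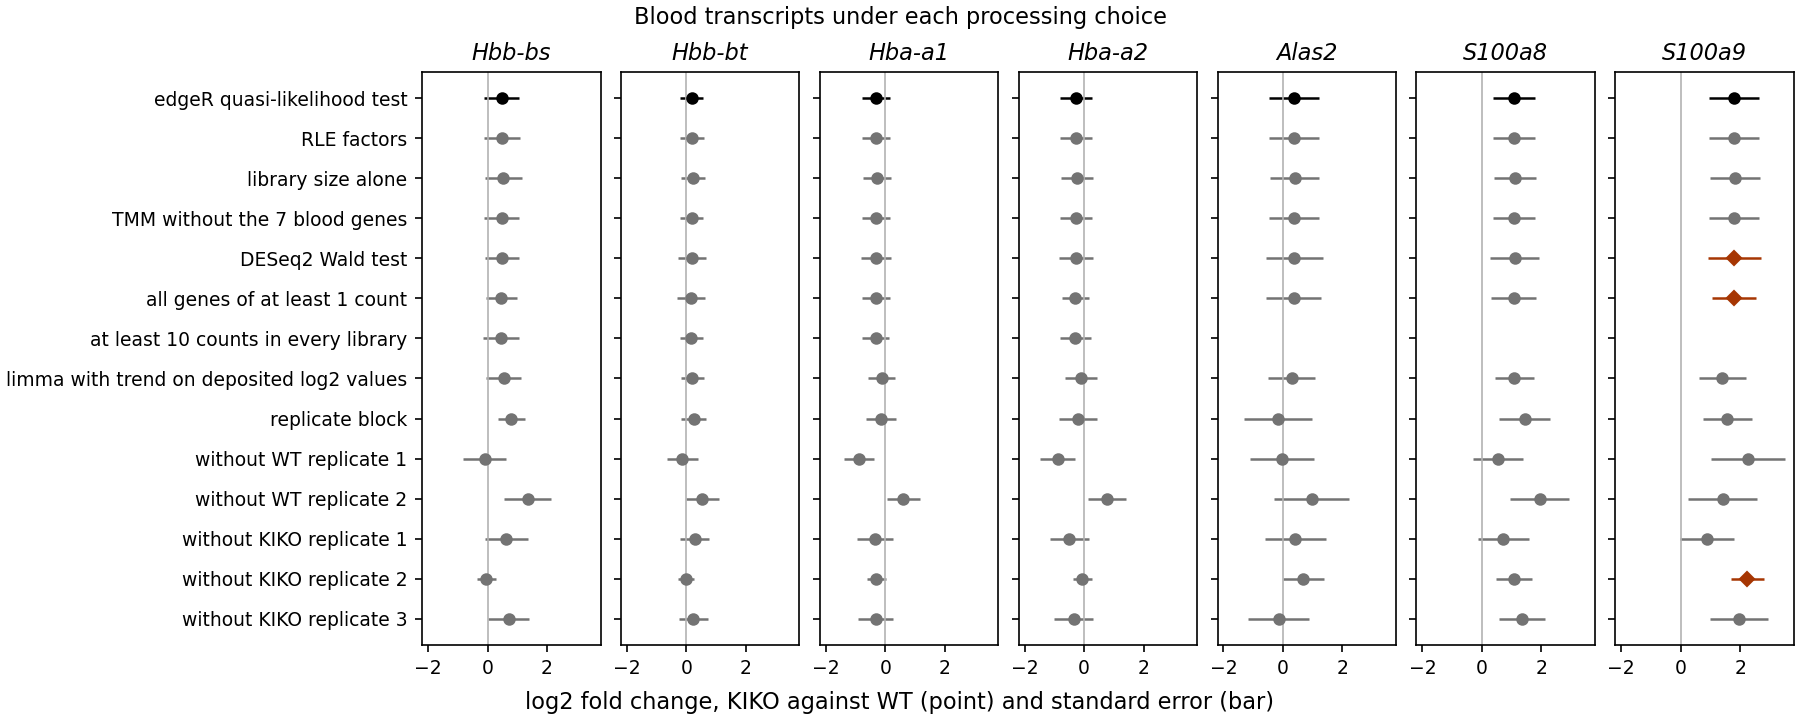
Log2 fold change of KIKO against WT for each blood transcript, with its standard error as a bar, in the edgeR test (black, top) and under each alternative (grey); orange diamonds mark values past the study's thresholds. The globin genes and *Alas2* cross 0 when single libraries are left out, and *S100a8* and *S100a9* stay above 0; *Alas2*, *S100a8* and *S100a9* have no value where at least 10 counts were required in every library.

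The 4 adult globin genes held 0.0985% of the counts of WT replicate 1 (95% Clopper-Pearson interval 0.0926 to 0.105%) and 0.267% of those of WT replicate 2 (0.258 to 0.276%). They held 0.187%, 0.304% and 0.161% in KIKO replicates 1, 2 and 3. The interval of each library lay apart from those of the others, so the libraries differed beyond counting error, also within a genotype. The mean share was 0.183 ± 0.119% (SD, n = 2) for WT and 0.217 ± 0.0761% (SD, n = 3) for KIKO, and the difference of 0.0342 percentage points was smaller than the spread within either genotype. Without KIKO replicate 2 it was −0.0091 points, without WT replicate 1 −0.05004 points, and without WT replicate 2 0.1185 points. The share differed 2.71-fold between the WT libraries. From 1 WT library to the other, *Hbb-bs* differed 2.73-fold, *Hbb-bt* 1.61-fold, *Hba-a1* 2.84-fold, *Hba-a2* 3.15-fold, *Alas2* 2.03-fold and *S100a8* 2.67-fold, all higher in WT replicate 2, while *S100a9* was lower in WT replicate 2, at 0.554 times its level in WT replicate 1. As these are bulk samples, fewer cells that carry these transcripts and less RNA per cell cannot be told apart. Whether the transcripts came from blood or from tissue cells was not tested.

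The balance of alpha to beta chain RNA was lowest in KIKO replicate 2. The alpha genes made up 35.7% and 39.6% of the adult globin counts in the WT libraries, and 35.3% and 37.0% in KIKO replicates 1 and 3. In KIKO replicate 2 they made up 16.7% (95% Clopper-Pearson interval 15.5 to 17.9%), outside the intervals of the other 4 libraries. Among those 4, the intervals of WT replicate 2 (37.97 to 41.2%) and KIKO replicate 1 (33.4 to 37.2%) also lay apart, by a smaller gap. In normalized CPM, the beta sum was 651 and 1634 in WT and 1205, 2399 and 1029 in KIKO mice. The alpha sum was 361 and 1070 in WT and 657, 480.1 and 604 in KIKO mice, so KIKO replicate 2 had the highest beta sum and the lowest alpha sum among KIKO mice. The pair sums do not depend on how reads were split within a pair, but they do depend on whether shared reads were counted or dropped, and the alpha pair shares more of its windows at the 3′ end than the beta pair. The genotype means of 37.6 ± 2.76% (SD, n = 2) for WT and 29.7 ± 11.3% (SD, n = 3) for KIKO differed by −7.97 percentage points, and by −1.48 without KIKO replicate 2.

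Within the pairs the split also varied. *Hba-a1* held 60.8% and 58.3% of the alpha counts in WT and 52.8%, 67.9% and 56.7% in KIKO mice. *Hbb-bt* held 19.5% and 12.5% of the beta counts in WT and 13.3%, 9.545% and 16.55% in KIKO mice. KIKO replicate 2 thus had the highest share of *Hba-a1* and the lowest share of *Hbb-bt*. Across the 5 libraries, the share of *Hbb-bt* fell in the same order in which the level of *Hbb-bs*, which is part of its denominator, rose.

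The summed calprotectin RNA did not follow the globins. *S100a8* alone ranked the libraries other than KIKO replicate 1 in the same order as the globin sum, while *S100a9* did not. The summed level of *S100a8* and *S100a9* was 16.7 and 21.7 normalized CPM in WT, from 17 and 29 counts. It was 89.6, 32.1 and 35.1 in KIKO mice, from 115, 42 and 35 counts. This sum was higher in each KIKO library than in each WT library, with means of 19.2 ± 3.54 (SD, n = 2) and 52.2 ± 32.4 (SD, n = 3). The difference of 33.0 normalized CPM was 14.3 without KIKO replicate 1 and 43.1 without KIKO replicate 2. A separation of the groups, in either direction, was found for 16.7% of all single genes tested. KIKO replicate 1, highest in calprotectin RNA, was in the middle of the order for globin RNA. *S100a9* made up 64.7%, 62.6% and 62.9% of the 2 genes' counts in WT replicate 1 and KIKO replicates 1 and 3, and 27.6% and 28.6% in WT replicate 2 and KIKO replicate 2. The Clopper-Pearson intervals of these shares were wide, such as 38.3 to 85.8% in WT replicate 1 and 12.7 to 47.2% in WT replicate 2. That of KIKO replicate 1 (53.1 to 71.45%) lay apart from those of WT replicate 2 and KIKO replicate 2 (15.7 to 44.6%). The interval of KIKO replicate 3 (44.9 to 78.5%) lay just above that of KIKO replicate 2 and overlapped that of WT replicate 2. The interval of WT replicate 1 overlapped those of all other libraries.

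**Figure D3:**
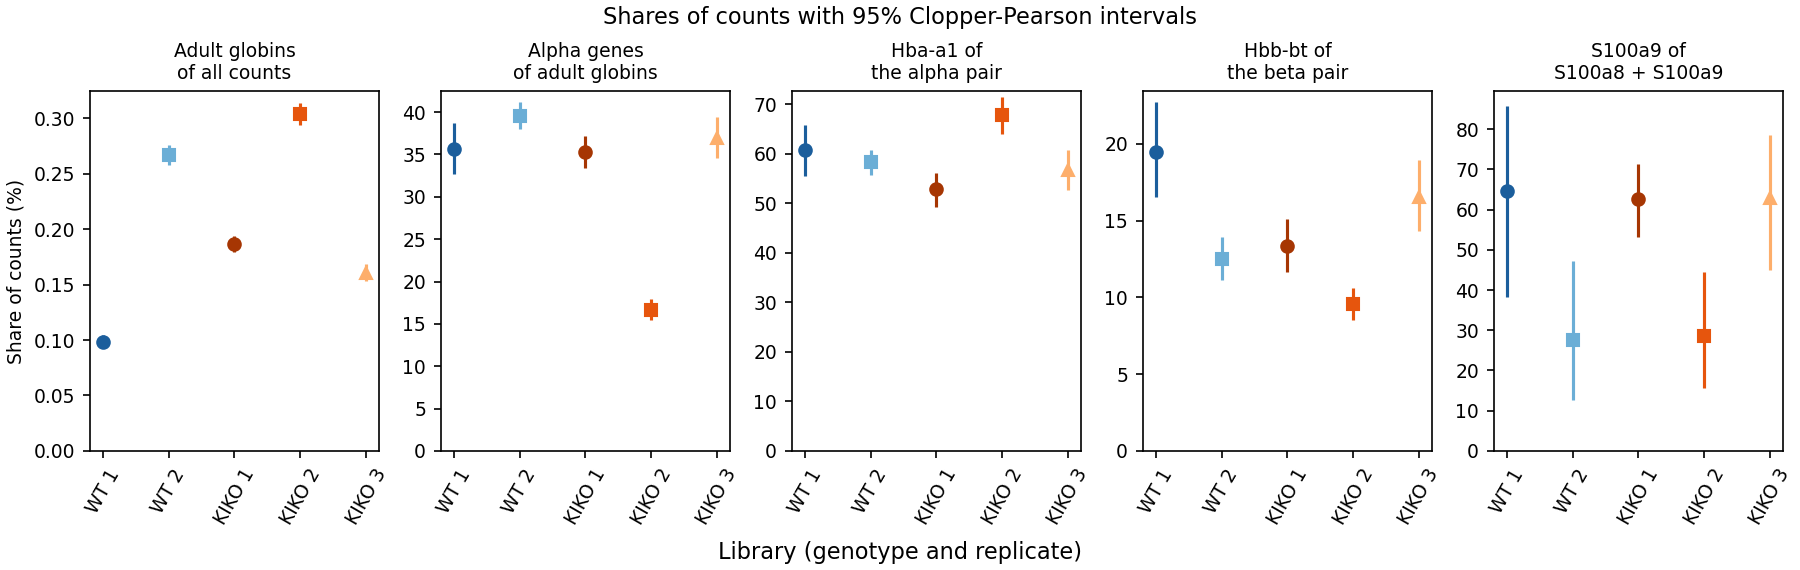
Shares of counts in each library, in percent with exact Clopper-Pearson 95% intervals as bars, for the adult globins in all counts, the alpha genes in the adult globins, *Hba-a1* in the alpha pair, *Hbb-bt* in the beta pair and *S100a9* in the calprotectin pair. KIKO replicate 2 stands apart in the alpha share (16.7%, against 35.3 to 39.6% in the other libraries).

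Per kilobase of annotated exon, the mean level over the 5 libraries was 1570 normalized CPM for *Hbb-bs*, 458 for *Hba-a1*, 394 for *Hba-a2*, 253 for *Hbb-bt*, 39.9 for *S100a9*, 26.2 for *S100a8* and 4.43 for *Alas2*. *Hbb-bs* lay above *Hba-a1*, *Hbb-bt* above *S100a9* and *S100a8* above *Alas2* in 5 of 5 libraries each. *Hba-a1* was above *Hba-a2* and *Hba-a2* above *Hbb-bt* in 4 of 5 libraries each, and *S100a9* above *S100a8* in 3 of 5, so these neighbours were not separated by the spread between libraries. This order assumes that reads cover whole transcripts and that reads shared by both copies of a pair were counted, neither of which can be seen in the counts.

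Most other globin genes, and 15 of 27 other erythroid genes, were at or near 0. Of 9 other globin genes, the embryonic *Hba-x*, *Hbb-bh1* and *Hbb-bh2*, the theta genes *Hbq1a* and *Hbq1b* and the myoglobin gene *Mb* had 0 counts in each library, and the embryonic *Hbb-y* and the neuronal *Ngb* had at most 3. *Cygb*, the cytoglobin gene of fibroblasts and other tissue cells, was the only one tested, at 61.0 and 49.4 normalized CPM in WT and 63.1, 45.0 and 97.2 in KIKO mice. In a list of 27 erythroid membrane and maturation genes, 9 had 0 counts in all 5 libraries, among them the erythroid transcription factors *Gata1* and *Klf1* and the membrane gene *Rhag*. A further 6 had at most 3 counts in any library, among them the band 3 anion exchanger (*Slc4a1*, 1 count, in KIKO replicate 3). Of the list, 10 genes were tested and 0 passed the thresholds, beside 1.2% of all genes tested, with a median log2 fold change of −0.02. The 27 genes summed to 1253 and 1052 normalized CPM in WT and 1144, 1107 and 1135 in KIKO mice. The most abundant was *Epb41*, a membrane skeleton gene that neurons also express. Here and below, the most abundant gene of a list had the highest mean normalized CPM over the 5 libraries, not scaled for length. *Epb41* was at 520.5 and 359.6 normalized CPM in WT and 511.8, 269.4 and 513.1 in KIKO mice, lowest in KIKO replicate 2. Other list members were highest in that library: *Ermap*, an erythroblast membrane gene, had 23 counts there against 0 to 2 in the others, and *Bnip3l*, a mitophagy gene of red cell maturation that other tissues express as well, was at 129.0 normalized CPM against 25.1 to 35.2. *Bpgm*, *Tal1*, *Tent5c* and *Mkrn1* were also highest there. In contrast, *Ank1* (128.2 normalized CPM) and *Tspan33* (25.95) were, like *Epb41*, lowest there. The tested members *Sptb* and *Car2* were neither highest nor lowest in that library. These members were chosen after their values were seen.

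Of 12 further genes of heme synthesis and its iron supply, 11 were tested and 0 passed the thresholds, beside 1.2% of all genes tested, with a median log2 fold change of −0.16. *Alas1*, the form of the first enzyme found in all tissues, was at 78.7 and 62.2 normalized CPM in WT and 70.9, 86.3 and 96.2 in KIKO mice. *Slc25a37*, the mitochondrial iron importer mitoferrin 1, was at 62.0 and 44.2 in WT and 63.9, 106.9 and 73.2 in KIKO mice, and its log2 fold change was 0.62 (standard error 0.42), with an adjusted p of 0.9999 in edgeR's test. *Slc25a38*, the mitochondrial glycine carrier of heme synthesis, was at 5.90 and 4.50 in WT and 6.23, 19.1 and 13.03 in KIKO mice, and its log2 fold change was 1.29 (standard error 0.85), with the same adjusted p. *Fech*, ferrochelatase, which puts iron into heme, was at 26.6 and 15.7 in WT and 25.7, 18.3 and 12.03 in KIKO mice. The values of *Slc25a37* and *Slc25a38* lay near those of the WT libraries in KIKO replicate 1.

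Among 11 genes that clear hemoglobin and heme, 9 were tested and 1 passed the thresholds, in the lower direction, as did 0.487% of all genes tested. *Blvrb*, biliverdin reductase B, an enzyme abundant in red cells, was at 41.3 and 52.4 normalized CPM in WT and 14.0, 12.98 and 7.02 in KIKO mice. Each KIKO library was below each WT library, with means of 46.9 ± 7.86 (SD, n = 2) and 11.3 ± 3.78 (SD, n = 3). Its log2 fold change was −2.03 (standard error 0.52), with an unadjusted p of 0.00399 and an adjusted p of 0.9999 in edgeR's test. *Cd163*, the macrophage receptor for hemoglobin bound to haptoglobin, was at 10.8 and 15.7 in WT and 19.5, 29.0 and 29.1 in KIKO mice. Like those of *Blvrb* and of 16.7% of all genes tested, its groups did not overlap, but its log2 fold change of 0.95 (standard error 0.55) had an unadjusted p of 0.125 and an adjusted p of 0.9999 in the same test. *Hmox1*, heme oxygenase 1, which opens the heme ring, was at 124.0 and 76.4 in WT and 136.3, 110.7 and 173.4 in KIKO mice. The median log2 fold change of the 9 genes was 0.12.

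The receptors and partners of calprotectin were measured from a list of 8 genes. Of these, 5 were tested and 0 passed the thresholds, beside 1.2% of all genes tested, with a median log2 fold change of −0.18. *Tlr4*, the toll-like receptor that binds calprotectin, had 0 and 10 counts in WT and 12, 9 and 2 counts in KIKO mice, and its partner *Ly96* had 2, 4, 9, 2 and 1 counts. *Ager*, which encodes the receptor RAGE, had 3 and 10 counts in WT and 2, 12 and 5 in KIKO mice. *Bsg*, basigin, a membrane protein of vessels and other cells that binds *S100a9* protein, was the most abundant, at 279 and 331 normalized CPM in WT and 234, 60.3 and 251 in KIKO mice. It was lowest in KIKO replicate 2, and its log2 fold change of −0.75 (standard error 0.57) had an adjusted p of 0.9999 in edgeR's test. The summed level of the 8 genes was 509.7 and 556.6 in WT and 407.4, 412.2 and 365.8 in KIKO mice. It was lower in each KIKO library than in each WT library, while 16.7% of single genes were separated in either direction. Most of this sum came from *Bsg* and *Cd14*, while *Tlr4* and *Ly96* had higher means in KIKO mice (6.07 against 3.75 and 3.18 against 2.48 normalized CPM).

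Most other neutrophil genes were at or near 0. Of 20 neutrophil granule and surface genes, 7 had 0 counts in all 5 libraries: the granule proteases *Elane*, *Prtn3* and *Ctsg*, the lactoferrin gene *Ltf*, the surface marker *Ly6g*, and *Stfa2l1* and *Wfdc21*. A further 6 had at most 3 counts in any library, among them myeloperoxidase (*Mpo*, 1 count, in KIKO replicate 1), the granule peptide gene *Camp* (0 and 3 counts in WT, 0, 0 and 1 in KIKO mice) and the chemokine receptor *Cxcr2* (0 and 1, then 0, 0 and 1). The granule gene *Ngp* had 0 and 2 counts in WT and 4, 0 and 9 in KIKO mice, and *Retnlg* had 0 and 8 counts in WT and 9, 0 and 1 in KIKO mice. *Lcn2*, lipocalin 2, had 4 and 6 counts in WT and 5, 0 and 0 in KIKO mice. *Mmp9*, gelatinase B, had 0 and 7 counts in WT and 2, 8 and 2 in KIKO mice. In KIKO replicate 2, *Ngp*, *Retnlg* and *Lcn2* were at 0, whereas *Mmp9*, *Csf3r* and *Hdc* had their highest counts of the 5 libraries. Of the list, 3 genes were tested and 0 passed the thresholds, beside 1.2% of all genes tested. *Csf3r*, the receptor for granulocyte colony-stimulating factor, was the most abundant and is found in microglia as well. It was at 31.5 and 34.5 normalized CPM in WT and 47.5, 71.8 and 23.1 in KIKO mice. The other tested genes were *Hdc*, histidine decarboxylase, with 5 and 16 counts in WT and 6, 24 and 10 in KIKO mice, and *Il1r2*, the decoy receptor for interleukin 1, with 15 and 15 counts in WT and 12, 1 and 9 in KIKO mice. The summed level of the 20 genes was 55.1 and 78.7 in WT and 81.8, 96.9 and 57.1 in KIKO mice, and these groups overlapped. It was higher than the calprotectin sum in each library but KIKO replicate 1.

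Markers of other blood cells varied. Of 11 monocyte genes, *Ly6c2*, *Plac8* and *Chil3* had 0 counts in each library and *Treml4* at most 1, whereas *F13a1*, which border macrophages also express, had 34 and 84 counts in WT and 57, 78 and 42 in KIKO mice, *Vcan* had 16 and 34 counts in WT and 56, 10 and 57 in KIKO mice, and *Ace* had 21 and 18 counts in WT and 36, 26 and 8 in KIKO mice. The list summed to 104 and 151 normalized CPM in WT and 168, 194 and 143 in KIKO mice, with *Fn1*, which vessels and other cells also express, as its most abundant gene. Of 10 platelet genes, 3 had 0 counts and 3 had at most 3. The most abundant, *Pf4*, which border macrophages also express, was at 59.0 and 29.2 in WT and 35.8, 158.8 and 22.1 in KIKO mice, highest in KIKO replicate 2. The T and NK cell list summed to between 2 and 13 counts per library, with *Cd3d* and *Cd3e* at 0, and the most abundant gene, *Gzma*, had at most 4 counts. The B cell list summed to between 49 and 168 counts, nearly all from *Ighm*, with *Cd79a* and *Ms4a1* at 0. Of these 4 lists, 4 monocyte genes, 1 platelet gene, 1 B cell gene and 0 T and NK cell genes had enough counts to be tested. Among those tested, 0 passed the thresholds, beside 1.2% of all genes tested.

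Markers of tissue cells differed between the libraries and in part moved with the globins. The summed level of 10 endothelial genes was 465 and 972 normalized CPM in WT and 570.2, 920 and 600.3 in KIKO mice. WT replicate 1 was lowest and WT replicate 2 and KIKO replicate 2 highest, for the endothelial sum as for the globin sum. The most abundant endothelial gene, *Flt1*, had 223 and 416 in WT and 193, 315 and 204 in KIKO mice. The mural list summed to 191 and 284 in WT and 239, 348 and 204 in KIKO mice, with *Rgs5* as its most abundant gene. WT replicate 1 was lowest in the mural sum too, and WT replicate 2 and KIKO replicate 2 were highest. The microglia list (most abundant gene *Csf1r*) summed to 5272 and 6643 in WT and 4597, 11850 and 5358 in KIKO mice. The border macrophage list summed to 222 and 266 in WT and 213, 353 and 198 in KIKO mice. By the mean it was also led by *Pf4*, which was highest of the list only in WT replicate 1 and KIKO replicate 2. *F13a1* was highest in WT replicate 2 and KIKO replicate 3, and *Lyve1* in KIKO replicate 1. The oligodendrocyte list summed to 5115 and 11700 in WT and 4484, 18630 and 5732 in KIKO mice, and the choroid plexus list (most abundant gene *Ttr*) to 10580 and 11660 in WT and 7874, 14110 and 6605 in KIKO mice. KIKO replicate 2 was highest in the microglia, border macrophage, mural, oligodendrocyte and choroid plexus sums, and WT replicate 2 was next in each. The granule neuron list (most abundant gene *Snap25*) summed to 2598 and 2009 in WT and 2387, 1798 and 2321 in KIKO mice, and the Purkinje neuron list (most abundant gene *Itpr1*) to 382 and 263 in WT and 586, 292 and 519 in KIKO mice, so neuronal RNA was present although the methods describe sorted CD45+/CD11b+ cells. The part of these cell types in the levels of the blood transcripts was not tested.

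In these 10 tissue lists 1 of 65 genes tested, or 1.54%, passed the thresholds, in the higher direction, a share near the 1.2% of all genes tested. *Gfap*, the intermediate filament gene of astrocytes, was at 19.7 and 9.74 normalized CPM in WT and 29.6, 44.3 and 36.1 in KIKO mice, and its log2 fold change was 1.33 (standard error 0.55), with an unadjusted p of 0.0400 and an adjusted p of 0.9999 in edgeR's test. The astrocyte list summed to 289 and 441 in WT and 455, 497 and 371 in KIKO mice, with *Slc1a3* as its most abundant gene. The fibroblast and meninges list, led by *Ptgds*, summed to 606 and 813 in WT and 908, 1327 and 1091 in KIKO mice. Like the calprotectin sum, this sum was higher in each KIKO library, while 16.7% of single genes were separated in either direction. Nearly all of it was *Ptgds* (531 and 748 in WT, 837, 1227 and 1017 in KIKO mice), while the fibroblast genes *Lum* and *Igf2* had lower means in KIKO mice and the collagen genes *Col1a1* and *Col1a2* higher ones. Its part in the calprotectin level was not tested.

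**Figure D4:**
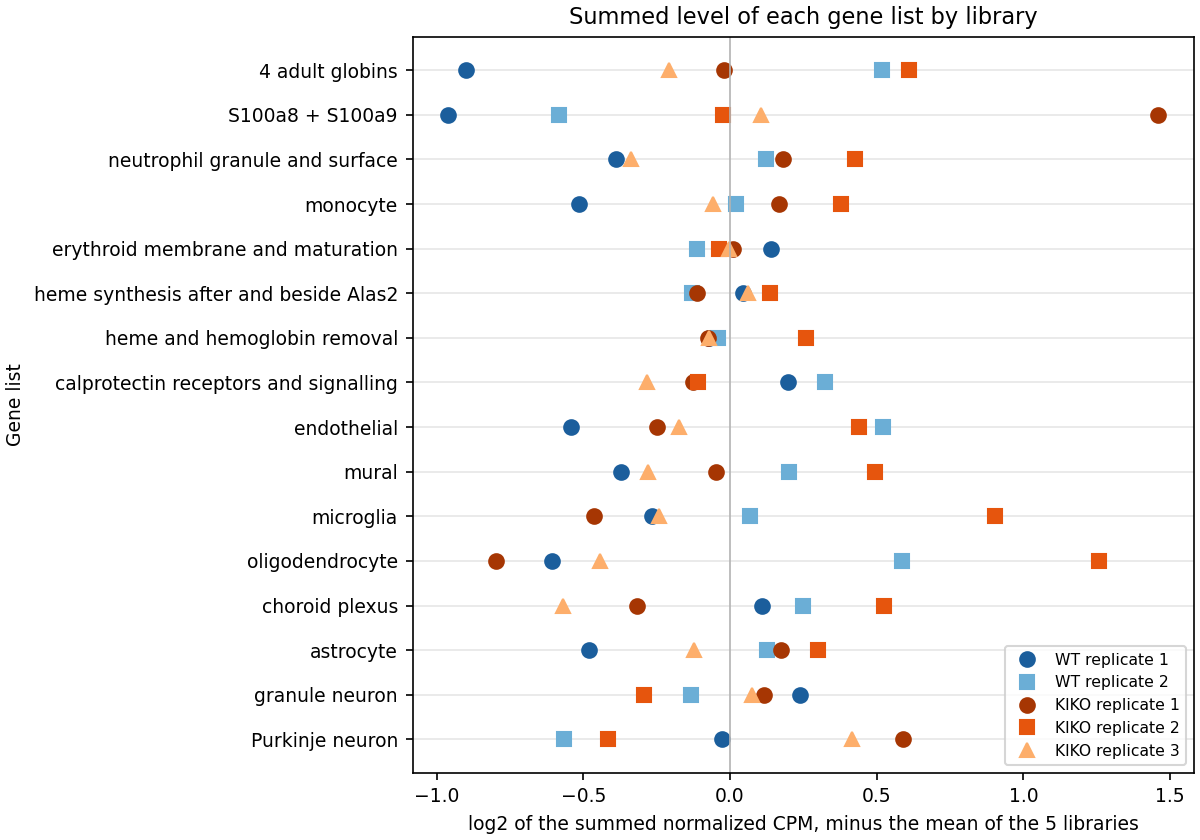
Summed normalized CPM of each gene list in each library, as log2 difference from the mean of the 5 libraries, with the adult globins and the calprotectin pair at the top. WT replicate 1 is lowest in the globin, calprotectin, endothelial and mural sums, KIKO replicate 1 is highest in the calprotectin sum, and KIKO replicate 2 is highest in the globin, microglia and oligodendrocyte sums.

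The genes whose levels ran closest to the blood transcripts over the 5 libraries were found by the root mean square difference of log2 levels, each centred on its mean. For the summed adult globins, the 10 closest of 7485 genes differed by 0.0691 to 0.1325 log2 units, against a median of 0.689 over all genes. They were, in order, *Ttl*, *Polr1c*, *Wdr75*, *Gid8*, *Slc1a3*, *Tsc22d3*, *Heca*, *Tcp1*, *P4ha1* and *Oscp1*. *Ttl* was at 16.7 and 40.5 normalized CPM in WT and 30.4, 49.6 and 27.1 in KIKO mice. *Slc1a3*, the astrocyte glutamate transporter of the astrocyte list, was at 86.6 and 216 in WT and 136, 217 and 118 in KIKO mice. For the calprotectin sum, the 5 closest of 7488 genes were *Evi5l*, *Smpd3*, *Zfp12*, *Pcdh11x* and *Sema4f*, at 0.326 to 0.384 log2 units against a median of 0.945. *Evi5l* was at 13.8 and 18.0 in WT and 40.5, 23.7 and 27.1 in KIKO mice. With 5 libraries and this many genes, close profiles are to be found for most patterns, and these names describe likeness only.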

How the data were processed

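Bulk RNA sequencing libraries of the cerebellum were grouped as WT or KIKO from their labels. After trimming (Trimmomatic) and alignment to mm10 (GRCm38, HISAT2), the authors counted reads with featureCounts and deposited the raw counts. The deposited log2 values are those of 1 plus the count over a DESeq2 size factor, with size factors between 0.8772 and 1.19. The annotation, strand and multi-mapping settings are not given in the sources used here. For extraction and libraries, the labels name a lipid tissue kit and a stranded Illumina kit, whereas the methods name a Zymo kit and a Digital mRNA-seq service. A further 2 columns per table had names with KIKO and BUT, the study's short form for butyrate. They matched no sample label and were not used.

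Tests used edgeR 4.0.16 (R 4.3.3): filterByExpr (minimum count 10, minimum total 15), TMM factors, and the quasi-likelihood test, two-sided, with Benjamini-Hochberg adjustment over all 10889 genes tested. Confidence intervals were 95% intervals, from the t distribution for fold changes and exact for counts and shares; exact intervals and the floor of 3 counts cover counting error only. Gene symbols, coordinates and transcripts came from GENCODE M21 (99.6% of 31053 identifiers matched), and promoters of all 7 genes from RefSeq. The fit was tested on simulated counts. Alternatives were RLE factors, library size alone, TMM without the 7 genes, DESeq2 1.42.0, looser and stricter filters, limma 3.58.1 on the deposited log2 values, the replicate number as a block, and leaving out each library.

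The 7 genes and all lists were chosen with earlier results of these data known. Genes were named by a rule: the 7 genes, the most abundant gene of each list and list members past the thresholds, members of the heme, calprotectin receptor and neutrophil lists with at least 3 counts in a library, and the 10 and 5 closest profiles among genes of at least 20 normalized CPM. Other list members were named after their values were seen. Some results are not reported here.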

Additional observations from a re-analysis of the deposited data

How the results depend on the processing

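The 131 genes past the thresholds became 383 with all genes of at least 1 count and 271 with the replicate number as a block, and between 56 and 669 when 1 library was left out (56 without WT replicate 1, 669 without KIKO replicate 2). At an adjusted p under 0.05, 1 gene passed with all genes of at least 1 count, and between 0 and 5 when 1 library was left out, 5 of them without KIKO replicate 2. The log2 fold change of *Hbb-bs* turned to −0.091 without WT replicate 1 and −0.047 without KIKO replicate 2, and that of *Hbb-bt* to −0.14 and −0.012. Without WT replicate 2, *Hba-a1* turned to 0.61 and *Hba-a2* to 0.76. *Alas2* turned to −0.15 with the replicate block, −0.041 without WT replicate 1 and −0.15 without KIKO replicate 3. *S100a9* passed the thresholds with DESeq2 (1.80), with all genes of at least 1 count (1.80) and without KIKO replicate 2 (2.25). Their cause was not tested. With a single library left out, log2 fold changes ranged from −0.091 to 1.35 for *Hbb-bs*, from −0.14 to 0.54 for *Hbb-bt*, from −0.89 to 0.61 for *Hba-a1*, from −0.89 to 0.76 for *Hba-a2*, from −0.15 to 0.96 for *Alas2*, from 0.55 to 1.94 for *S100a8* and from 0.89 to 2.26 for *S100a9*.

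Over all results and alternatives, 117 values stayed on their side of the thresholds in the same direction, within 1.5 times for a count of genes, or, where there was no test, within 1 SD. The last held for each alternative of the globin share, the alpha share and the calprotectin sum, although the small globin difference was −0.05004 points without WT replicate 1, −0.0091 without KIKO replicate 2 and 0.1185 without WT replicate 2. The replicate numbers did not count as a pairing: deviations of same-numbered libraries correlated with r = 0.17 and 0.225 across genes, only 2 pairs exist, and the block left 1 residual degree of freedom. Apart from the count of 271 and *Alas2*, the block changed no call or direction. Leaving out a WT library left 1, which was assumed to vary like the KIKO libraries. At least 10 counts in every library left *Alas2*, *S100a8* and *S100a9* without a value, so at this depth a change in these 3 genes rests on counts of at most 72.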
